A study of Rattus norvegicus with 6 samples.

Results

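The lecticans, their link proteins and the tenascins are the parts of a hyaluronan-based matrix that coats neurons. Their transcripts were followed in L5 dorsal root ganglia (DRG) after spinal nerve transection (SNT), a rat model of neuropathic pain in which the L5 spinal nerve is cut. The set held 10 genes, namely the link proteins Hapln1, Hapln2, Hapln3 and Hapln4, the lecticans Acan, Bcan, Ncan and Vcan, and the tenascins Tnc and Tnr. Hapln1 was chosen by its fall in this very comparison of array levels, and the 9 others were taken as its relatives and matrix partners. Of the 10 genes, 9 had a transcript cluster annotated to exactly 1 symbol, each with a single such cluster, out of 13215 genes and 19418 clusters on the array. The expression of Tnc was not analysed here.

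The groups were L5 DRG of male Wistar rats 7 days after SNT and L5 DRG of naive male Wistar rats. There were 3 SNT and 3 naive arrays, and each array carried polyadenylated RNA pooled from 4 animals. The pools were separate, so 12 animals stood behind each group, and the spread between arrays is a spread between pools. Naive rats had no operation, and effects of surgery and of the nerve cut cannot be told apart. Besides sensory neurons a ganglion holds glial, connective tissue, vessel and immune cells. In such bulk tissue fewer cells of a type and less RNA per cell cannot be told apart.

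In this matrix, lecticans are chondroitin sulfate proteoglycans that bind hyaluronan at their N-terminal end. Link proteins clamp that bond, and tenascins join lecticans at the other end. Around neurons of the brain and spinal cord the assembly forms perineuronal nets and the matrix of the node of Ranvier, whereas Acan with Hapln1 is best known from cartilage. Lectican chondroitin sulfate chains are known as inhibitors of axon growth.

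The values are normalised probe intensities on a log2 scale, on which 1 unit is a doubling. Nerve injury marked the arrays as labelled, since the injury factor Atf3 lay between 11.4 and 11.6 on the SNT arrays and between 7.69 and 7.74 on the naive arrays, and Sprr1a, another injury gene, between 10.2 and 10.7 on the SNT arrays and between 4.39 and 4.67 on the naive arrays. SNT replicate 1 stood apart from the other SNT arrays. Across clusters it correlated with them at r = 0.982. The correlation was 0.99 between SNT replicates 2 and 3 and 0.994 to 0.996 among naive arrays. With the naive arrays SNT replicate 1 correlated at 0.978 to 0.981, and SNT replicates 2 and 3 at 0.957 to 0.969. Results are therefore given for each SNT array.

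The 5 genes whose values the results turn on are Hapln1, its neighbour on the genome Vcan, and Hapln4, Bcan and Tnr. Their promoter windows are shown because these genes moved, Vcan one way and the others the opposite way. Each run is the 250 bases before a transcript start, 5′ to 3′ on the strand of the gene, from RefSeq on the GRCr8 build, and for Bcan and Tnr that start is not the outermost one of the gene. Capitals mark matches to any of 5 short motifs searched on both strands. They were the AP-1 motif with the letters TGACTCA, the cyclic AMP response element (CRE) with TGACGTCA, the TATA motif with TATAAA, the GC box with GGGCGG and an E box form with CAGCTG.
Hapln1 (GRCr8 chr2:22366717-22366966, plus strand): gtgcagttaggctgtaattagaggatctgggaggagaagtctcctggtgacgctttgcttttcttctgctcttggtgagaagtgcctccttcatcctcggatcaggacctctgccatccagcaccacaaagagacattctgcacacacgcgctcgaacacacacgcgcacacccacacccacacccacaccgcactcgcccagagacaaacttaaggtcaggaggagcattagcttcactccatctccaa
Vcan (GRCr8 chr2:22595956-22596205, minus strand): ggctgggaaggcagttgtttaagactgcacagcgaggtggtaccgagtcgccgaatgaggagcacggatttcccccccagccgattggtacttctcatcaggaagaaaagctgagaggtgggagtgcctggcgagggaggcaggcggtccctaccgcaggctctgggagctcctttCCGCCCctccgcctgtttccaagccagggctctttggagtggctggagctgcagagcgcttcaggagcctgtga
Hapln4 (GRCr8 chr16:19375174-19375423, minus strand): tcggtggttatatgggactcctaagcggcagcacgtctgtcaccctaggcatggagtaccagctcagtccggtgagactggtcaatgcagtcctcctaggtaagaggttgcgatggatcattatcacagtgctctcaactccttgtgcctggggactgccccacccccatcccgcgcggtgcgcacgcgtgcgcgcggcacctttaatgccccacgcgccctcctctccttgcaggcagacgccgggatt
Bcan (GRCr8 chr2:175765315-175765564, minus strand): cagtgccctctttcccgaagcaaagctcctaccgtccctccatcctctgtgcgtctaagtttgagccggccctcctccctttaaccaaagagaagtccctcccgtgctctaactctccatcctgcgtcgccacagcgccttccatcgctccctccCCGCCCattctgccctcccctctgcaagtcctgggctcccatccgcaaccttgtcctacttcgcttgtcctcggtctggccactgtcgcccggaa
Tnr (GRCr8 chr13:74624776-74625025, plus strand): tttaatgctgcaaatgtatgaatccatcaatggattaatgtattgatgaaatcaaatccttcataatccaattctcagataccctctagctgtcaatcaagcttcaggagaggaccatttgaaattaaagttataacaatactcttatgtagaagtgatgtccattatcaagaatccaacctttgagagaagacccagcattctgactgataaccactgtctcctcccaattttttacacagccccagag

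The windows of Hapln1, Hapln4 and Tnr held no match to any of the 5 motifs, and those of Vcan and Bcan held 1 GC box each. A GC box occurred in 30.5% of 33469 windows of this length in the table. AP-1 and CRE letters occurred in 4.05% and 1.59% of all windows, TATA letters in 12.9% and the E box in 12.0%. AP-1 and CRE letters occurred in none of the windows of the 9 set genes that the table held. Tnc was among these 9 and Hapln3 was not. The Tnr window was 36.8% G and C with 0 CpG dinucleotides, against a median over all windows of 51.2% and 5. The Hapln4 window was 61.2% G and C with 18 CpG, and the Hapln1 window 54.0% with 9. Vcan also had a start listed further into the gene, whose window held the same GC box.

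Hapln1, the link protein that ties lecticans to hyaluronan in cartilage and in perineuronal nets, was lower on each SNT array than on any naive array. Its level was 7.36, 5.11 and 5.18 on SNT replicates 1 to 3, against 8.84, 9.10 and 8.88 on naive replicates 1 to 3. The groups did not overlap, and SNT replicate 1 kept more of the signal than SNT replicates 2 and 3. The mean was 5.88 ± 1.28 after SNT and 8.94 ± 0.14 in naive ganglia (SD, n = 3 arrays each), a difference of -3.06 on the log2 scale, or 8.34-fold lower after SNT. Without SNT replicate 1 the difference was -3.80, or 13.9-fold lower. SNT replicates 2 and 3 lay below a level of 6, where nonspecific signal may be part of a value, so both folds are those of the measured values only. Because this fall is what brought the gene into the set, it is given as a description and without a test.

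Hapln4, a link protein known from perineuronal nets of the brain where it accompanies brevican, also fell. It stood at 6.91, 6.04 and 6.37 on SNT replicates 1 to 3 and at 7.57, 7.81 and 7.80 on naive replicates 1 to 3. Every SNT array lay below every naive array, again with SNT replicate 1 nearest to naive. The log2 fold change was -1.29 ± 0.21 (SE), or 2.44-fold lower after SNT (limma, adjusted p = 0.00982).

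The other link proteins did not pass the test. Hapln2, known from nodes of Ranvier of central axons, stood at 7.15, 6.72 and 6.55 on the SNT arrays and at 6.69, 6.89 and 6.83 on the naive arrays. The groups overlapped, and the log2 fold change was 0.00 with a 95% interval of -0.37 to 0.38 (limma, adjusted p = 0.988), so a change of 1 on the log2 scale lies outside the interval. Hapln3, a link protein found outside the nervous system as well, was dim on the array at 5.12, 4.96 and 4.82 after SNT and 4.95, 5.17 and 4.95 in naive ganglia. Its values overlapped as well (log2 fold change -0.06, 95% interval -0.32 to 0.21). Since no background level was set here, a value this low may hold nonspecific signal.

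**Figure D1:**
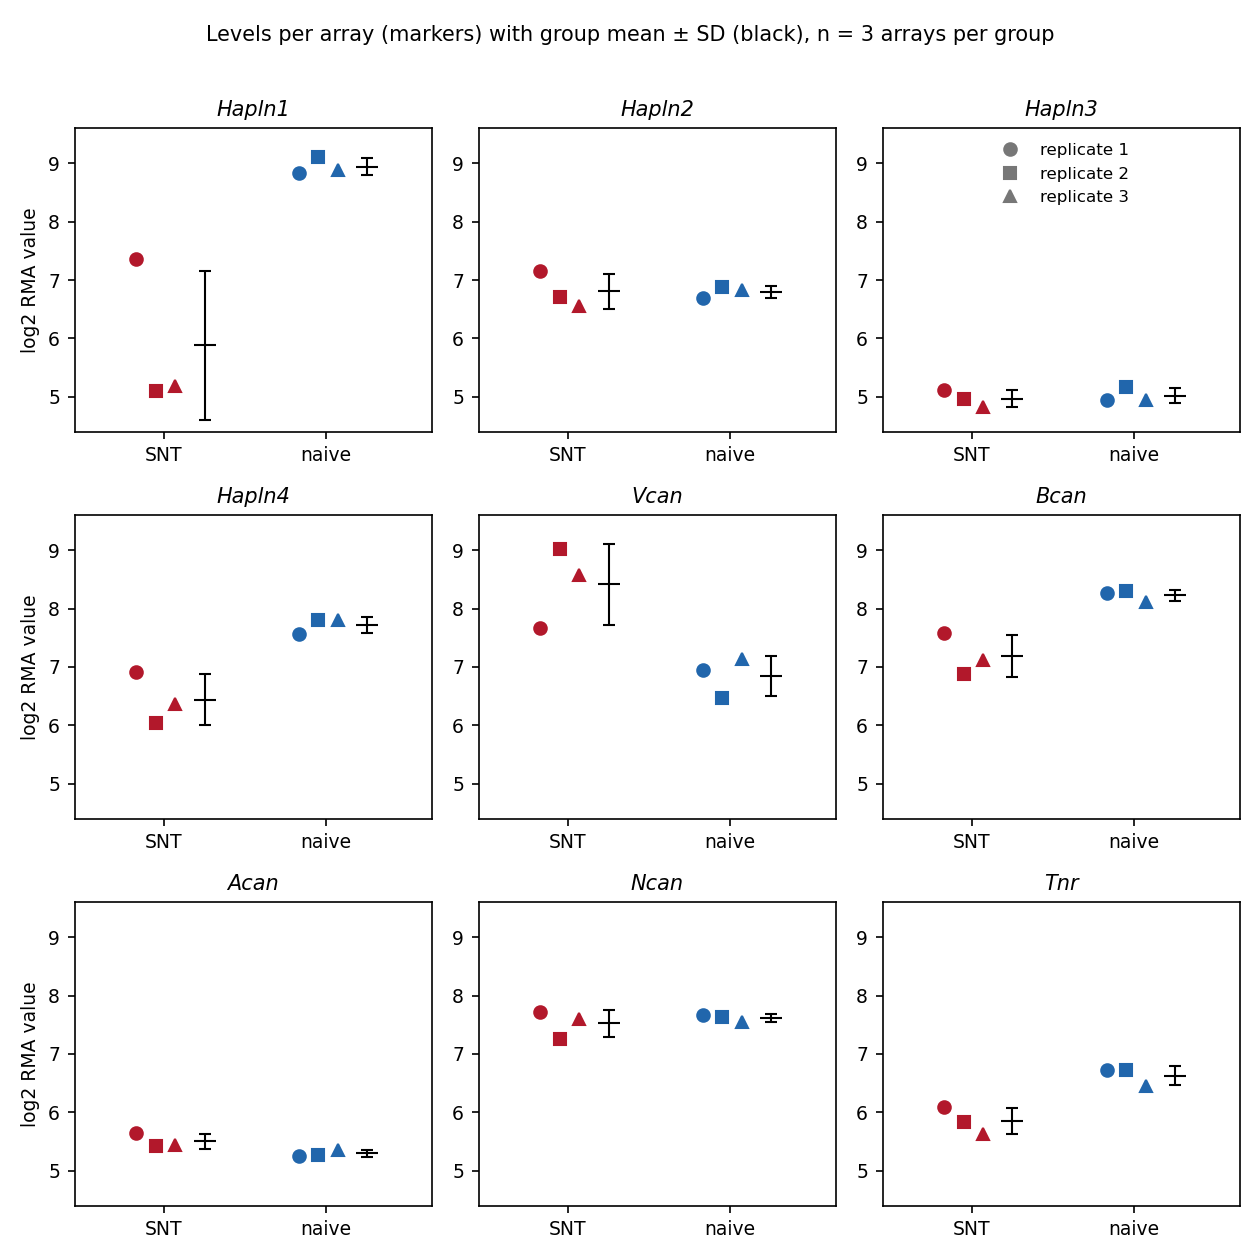
Level of each of the 9 measured genes on each array (vertical axis, log2 RMA value) in SNT (left, red) and naive (right, blue) ganglia; marker shape gives the replicate number, and the black bar gives the mean ± SD of 3 arrays. Hapln1, Hapln4, Bcan and Tnr lie lower and Vcan higher on all 3 SNT arrays, whereas Hapln2, Hapln3 and Ncan overlap between the groups.

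Among the lecticans, versican and brevican moved in opposite directions. Vcan, a large proteoglycan of loose connective tissue and healing wounds, had levels of 7.66, 9.02 and 8.58 on SNT replicates 1 to 3 and of 6.96, 6.47 and 7.13 on naive replicates 1 to 3. All SNT arrays were above the naive arrays, SNT replicate 1 by the least. The log2 fold change was 1.57 ± 0.35, or 2.96-fold higher after SNT (limma, adjusted p = 0.0215).

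Bcan, the short brain lectican of perineuronal nets and the axon initial segment, fell. Its levels were 7.58, 6.88 and 7.13 on the SNT arrays and 8.27, 8.29 and 8.12 on the naive arrays, with no overlap. The log2 fold change was -1.03 ± 0.18, or 2.04-fold lower after SNT (limma, adjusted p = 0.0105).

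Ncan, a lectican of the developing and injured central nervous system, did not pass the test. It stood at 7.71, 7.26 and 7.60 after SNT and at 7.66, 7.64 and 7.54 in naive ganglia, and the log2 fold change was -0.09 with a 95% interval of -0.39 to 0.21 (limma, adjusted p = 0.641). Acan, the main proteoglycan of cartilage and of many perineuronal nets, was dim at 5.65, 5.42 and 5.43 after SNT and at 5.25, 5.28 and 5.36 in naive ganglia. The SNT arrays lay just above the naive arrays, but the log2 fold change of 0.21 had a 95% interval of -0.01 to 0.43 and missed the threshold (limma, adjusted p = 0.152). That separation was small beside those of Vcan and Bcan, and both Acan and Hapln3 lay below a level of 6 on all 6 arrays.

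Tnr, a tenascin made by oligodendrocytes and some neurons that crosslinks lecticans in perineuronal nets, fell. It stood at 6.09, 5.83 and 5.63 on SNT replicates 1 to 3 and at 6.73, 6.72 and 6.44 on naive replicates 1 to 3. The groups did not overlap, and the log2 fold change was -0.78 ± 0.14, or 1.71-fold lower after SNT (limma, adjusted p = 0.0120). SNT replicates 2 and 3 lay below a level of 6 here too.

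Of the 8 genes tested, 1 rose (Vcan), 3 fell (Hapln4, Bcan and Tnr) and 4 did not pass a false discovery rate (FDR) of 0.1. Over all 13215 genes 38.2% passed, 19.9% higher and 18.3% lower. Calls were common in this comparison, so 4 of 8 is not a result about the set as a whole. Over all 19418 clusters 32.1% passed, 17.3% (3367) higher and 14.8% (2865) lower, and with each array centred on its median 1869 were higher and 3403 lower. The SNT and naive arrays did not overlap for 5 of the 8 genes, against 51.6% of all genes (28.6% higher and 23.0% lower). The median log2 fold change of the 8 genes was -0.07, against 0.07 over all genes. Leaving out any 1 array kept the calls of Vcan, Hapln4, Bcan and Tnr, with adjusted p of at most 0.0785 for Vcan, 0.0470 for Hapln4, 0.0496 for Bcan and 0.0566 for Tnr.

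**Figure D2:**
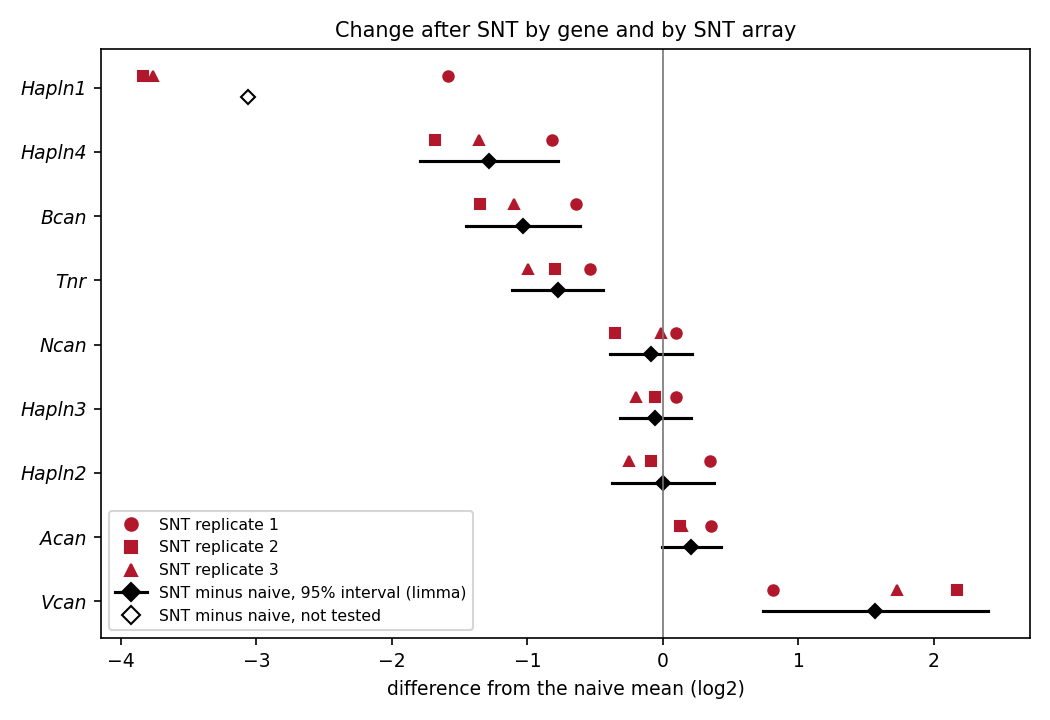
Difference from the naive mean (horizontal axis, log2) for each gene, with the 3 SNT arrays as red markers and the estimate SNT minus naive as a diamond with its 95% interval from limma (n = 3 arrays per group). Hapln1 has an open diamond and no interval because it was chosen for this fall; in Hapln1, Hapln4, Bcan, Tnr and Vcan the circle of SNT replicate 1 lies nearest to 0.

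The link protein and lectican genes sit beside each other in the genome, a feature that the choice of genes did not use. In the RefSeq annotation of GRCr8, no protein-coding gene lies between Hapln1 and Vcan on chromosome 2, between Hapln2 and Bcan on chromosome 2, between Hapln3 and Acan on chromosome 1, or between Hapln4 and Ncan on chromosome 16. Hapln1 and Vcan lie on opposite strands, as do Hapln4 and Ncan, while Hapln2 and Bcan share a strand.

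The changes of neighbours are given side by side. Next to Hapln1 (-3.06), Vcan rose (1.57), and the deviation of Vcan from its naive mean exceeded that of Hapln1 by 2.39, 6.00 and 5.49 on SNT replicates 1 to 3. That gap is a description, since Hapln1 was chosen for its fall.

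For Bcan (-1.03) and Hapln2 (0.00), the deviation of Bcan minus that of Hapln2 was -0.99, -1.26 and -0.85 on the SNT arrays and 0.15, -0.02 and -0.14 on the naive arrays. For Ncan (-0.09) and Hapln4 (-1.29), the deviation of Ncan minus that of Hapln4 was 0.91, 1.33 and 1.35 on the SNT arrays and 0.21, -0.06 and -0.15 on the naive arrays. For Acan and Hapln3, both dim, the same quantity was 0.26, 0.19 and 0.34 on the SNT arrays and 0.03, -0.17 and 0.13 on the naive arrays. In all 3 pairs every SNT array lay apart from every naive array. Single genes had no overlap in 51.6% of cases, and the share over other pairs of genes was not determined. An exact two-sided permutation test over arrays gave p = 0.1 for each of the 3 pairs tested, before and after Benjamini-Hochberg adjustment over the 3 pairs. It is the smallest value that 3 against 3 arrays allow, so none could reach 0.05.

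Hapln1, Hapln4, Bcan, Tnr and Vcan all moved least on SNT replicate 1. Their differences from the naive mean on SNT replicates 1, 2 and 3 were -1.58, -3.83 and -3.76 for Hapln1, -0.82, -1.68 and -1.36 for Hapln4, and -0.64, -1.35 and -1.10 for Bcan. For Tnr they were -0.54, -0.80 and -1.00, and for Vcan 0.81, 2.17 and 1.72. The order of SNT replicates 2 and 3 was not the same in all 5 genes, and Tnr was lowest on SNT replicate 3.

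Markers of neurons, macrophages, fibroblasts and satellite glia also moved least on SNT replicate 1, by the mean of each list. For satellite glia the differences were -0.13, -0.34 and -0.42 on SNT replicates 1 to 3. Across all clusters SNT replicate 1 was likewise nearest to naive (r = 0.978 to 0.981, against 0.957 to 0.969). The pattern is therefore not particular to these genes or cell types, and its share over all genes was not determined. The marker counts are of genes past FDR 0.1. Over all genes 38.2% passed, 19.9% higher and 18.3% lower. All 7 measured nociceptor markers fell, and their mean level was 7.20 to 8.99 on the SNT arrays against 9.72 to 9.96 on the naive arrays, a difference of -0.86, -2.51 and -2.64 on SNT replicates 1 to 3. Large-diameter neurons had 5 of 6 markers lower, with differences of -0.70, -1.27 and -1.09. General markers of sensory neurons were lower in 5 of 8 cases, with differences of -0.42, -0.99 and -0.72, and the neuronal tubulin Tubb3 had a log2 fold change of 0.04. All 6 measured macrophage markers rose, with a mean level of 7.92 to 8.92 after SNT against 6.61 to 7.08 in naive ganglia and differences of 1.09, 2.08 and 1.59. Of 5 fibroblast markers 3 rose, with differences of 0.21, 0.45 and 0.53. The part of these cell types in the fall of Hapln1, Hapln4, Bcan and Tnr or in the rise of Vcan was not tested.

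The other lists covered glia, vessels and tissues beside the ganglion. Their counts are read against the same shares over all genes, 19.9% higher and 18.3% lower. Schwann cells had 1 of 6 markers higher, with mean levels of 10.97 to 11.3 after SNT and 10.8 to 11.3 in naive ganglia. Satellite glia had 1 of 4 markers higher and 2 lower, with a median log2 fold change of -0.18. Gja1 rose (0.43), while Fabp7 (-1.25) and Kcnj10 (-0.20) fell. Of 3 endothelial markers 1 rose, and the motor neuron markers Chat and Slc5a7 had log2 fold changes between -0.04 and 0.08 and were not called. Bcan and Tnr are known from glia of the spinal cord, and of 7 markers of its oligodendrocytes and astrocytes 1 rose, namely Gfap, and 2 fell, namely Aqp4 and Slc1a2. The study itself reports Gfap as higher in L5 DRG after SNT, and whether its rise came from spinal cord cells was not tested. The mean level of the spinal cord list, Gfap included, was 5.65 to 5.73 after SNT and 5.57 to 5.63 in naive ganglia. The median log2 fold change of the list was -0.15, so the mean and the median differed in sign. Gfap had a log2 fold change of 1.93 and Aqp4 of -1.05. The oligodendrocyte markers Mog, Mobp, Opalin and Ermn lay between 4.73 and 5.58 on all arrays, and none of them passed the test. For cartilage, in which Hapln1 and Acan are abundant, 1 of 7 markers rose and 1 fell, with mean levels of 6.60 to 6.89 after SNT and 6.56 to 6.77 in naive ganglia, and Col2a1 had a log2 fold change of 0.11.

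**Figure D3:**
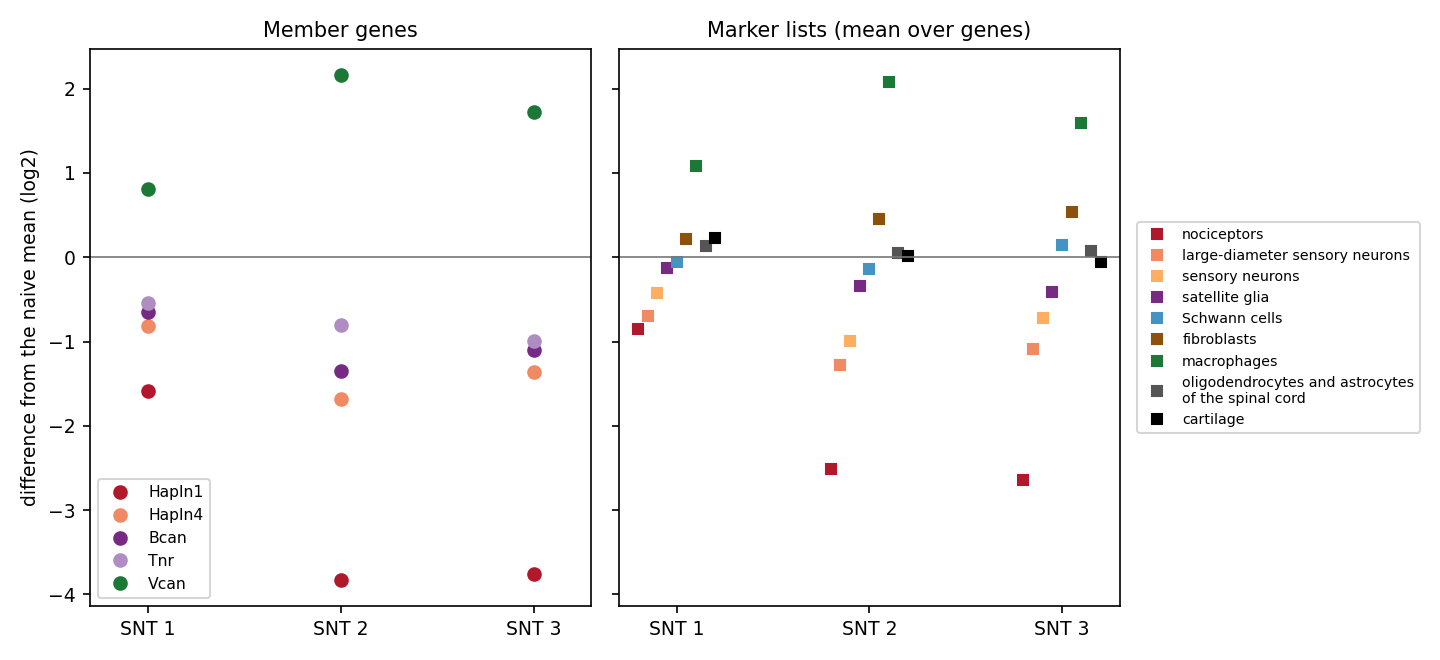
Difference from the naive mean (vertical axis, log2) on SNT replicates 1, 2 and 3, for 5 member genes (left) and for the mean over the genes of 9 marker lists (right, set side by side within an array). Hapln1 lay at -1.58 on SNT replicate 1 and near -3.8 on the others, and the nociceptor list at -0.86 on SNT replicate 1 against -2.51 and -2.64.

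The genes whose pattern was closest to that of Hapln1 were found by the root mean square difference over the 6 arrays, each gene taken relative to its naive mean. In order they were Plcd4 (0.12 on the log2 scale), Scg2 (0.16), Sst (0.16), Scn11a (0.20), Tmem255a (0.22), Kcnip4 (0.23), Htr1d (0.23), Htr3b (0.24), Grik1 (0.24) and Htr3a (0.25). Plcd4, a phospholipase C, had differences of -1.77, -3.79 and -3.66 from its naive mean on SNT replicates 1 to 3, close to those of Hapln1. Scn11a, the sodium channel Nav1.9 and 1 of the nociceptor markers above, had differences of -1.37, -3.95 and -4.14. The genes closest to Hapln4 were Brinp1 (0.06), Slitrk1 (0.08), Slitrk4 (0.09), Rtn4rl1 (0.09) and Herc3 (0.09). The likeness covers the shared difference between SNT and naive as well as the spread among 6 arrays and is a description.

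The genes that make and bind the matrix were taken by pathway, and their counts are read against the 38.2% of all genes that passed. These lists were chosen with earlier results of these data known, so their shares are descriptions. Hyaluronan genes were called in 6 of 16 cases (37.5%), 5 higher and 1 lower, and their log2 fold changes had a median of 0.16. Among them were Cd44, the main hyaluronan receptor (0.97 ± 0.11, adjusted p = 0.00479), Cemip2, a cell surface hyaluronidase (0.66 ± 0.09, adjusted p = 0.00678), and the synthase Has1 (0.72 ± 0.11, adjusted p = 0.00744, at a low level of 5.62 to 5.87 after SNT against 4.92 to 5.19 in naive ganglia). The synthase Has2 rose (0.81 ± 0.24, adjusted p = 0.0509) and lay 0.26, 1.26 and 0.91 above its naive mean on SNT replicates 1 to 3. Hyal3, a hyaluronidase relative, fell (-0.57 ± 0.10, adjusted p = 0.0116), but its more variable cluster had adjusted p = 0.456.

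Enzymes that build and sulfate chondroitin chains were called in 6 of 19 cases, 3 higher and 3 lower (31.6%). Chst15, which adds a further sulfate to make the chondroitin sulfate E unit, fell (-1.37 ± 0.21, 2.59-fold lower, adjusted p = 0.00754). It stood at 7.84, 7.19 and 7.25 on SNT replicates 1 to 3 and at 8.84, 9.02 and 8.53 on naive replicates 1 to 3. Ust, which sulfates the uronic acid of the chain, fell as well (-1.01 ± 0.19, adjusted p = 0.0140). Chsy1, a chondroitin polymerase, rose (0.97 ± 0.16, 1.96-fold, adjusted p = 0.0102), as did Chst14, a sulfotransferase of dermatan sulfate (0.79 ± 0.12, adjusted p = 0.00756). The list thus held enzymes that moved both ways and its median was 0.08, against 0.07 over all genes. With each array centred on its median both shifted alike, to -0.01 for the list and -0.01 over all genes.

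Proteases that cut lecticans were called in 5 of 9 cases (55.6%), all of them higher, and the 4 others were not called. Over all genes 38.2% were called in either direction and 19.9% were called higher. The median of the list was 0.52. Mmp2 (1.26 ± 0.19, 2.39-fold higher, adjusted p = 0.00768) and the aggrecanase Adamts1 (0.98 ± 0.16, 1.97-fold higher, adjusted p = 0.00948) changed most. Mmp3 rose at a low level (0.52 ± 0.09, 4.62 to 4.87 after SNT against 4.18 to 4.26 in naive ganglia), and Adamts9 rose (0.53 ± 0.15, adjusted p = 0.0421) but leaving out naive replicate 1 gave adjusted p = 0.107, leaving out naive replicate 2 gave 0.138 and median centring gave 0.107. Adamts5, a main aggrecanase of cartilage, had a log2 fold change of -0.15 and was not called. Without naive replicate 2 the proteases that rose numbered 3, as they did after median centring.

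Receptors for the matrix were called in 6 of 10 cases (60%), 3 higher and 3 lower. Rtn4rl1, or NgR3, a receptor for chondroitin sulfate proteoglycans, fell (-1.39 ± 0.22, 2.62-fold lower, adjusted p = 0.00901). Cntn1, the neuronal adhesion molecule that binds Tnr, fell (-0.83 ± 0.15, adjusted p = 0.0119). It stood at 10.9, 10.4 and 10.8 on the SNT arrays and at 11.6, 11.5 and 11.5 on the naive arrays. The integrin subunit Itgb6 fell at a low level (-0.64 ± 0.11, adjusted p = 0.0112). Its values were 5.19 to 5.57 on the SNT arrays and 5.92 to 6.06 on the naive arrays. The integrin subunits Itga7 (0.58 ± 0.08, adjusted p = 0.00687) and Itgb1 (0.54 ± 0.11, adjusted p = 0.0155) rose. Ptprs, the phosphatase receptor for chondroitin sulfate, had a log2 fold change of -0.14 with a 95% interval of -0.33 to 0.04 and was not called. Without SNT replicate 1 the receptors that fell numbered 5.

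Other proteoglycans and binding partners were called in 6 of 9 cases (66.7%), 3 higher and 3 lower. The growth factors midkine and pleiotrophin, which are related to each other and bind chondroitin sulfate, moved in opposite directions. Mdk rose (0.80 ± 0.10, adjusted p = 0.00544), with 9.73, 9.79 and 10.02 on the SNT arrays against 9.03, 9.02 and 9.11 on the naive arrays. Ptn fell (-0.62 ± 0.10, adjusted p = 0.00882), with 10.30, 10.21 and 10.48 on the SNT arrays against 11.04, 10.96 and 10.85 on the naive arrays. Of the versican partners, fibrillin-1 (Fbn1) rose (1.30 ± 0.20, 2.46-fold higher, adjusted p = 0.00796) and fibulin-2 (Fbln2) fell (-0.83 ± 0.16, adjusted p = 0.0133). For Mdk, Ptn, Fbn1 and Fbln2 the SNT and naive arrays did not overlap, as was so for 51.6% of all genes. These genes were named for their small adjusted p, so the separation adds nothing to the calls.

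**Figure D4:**
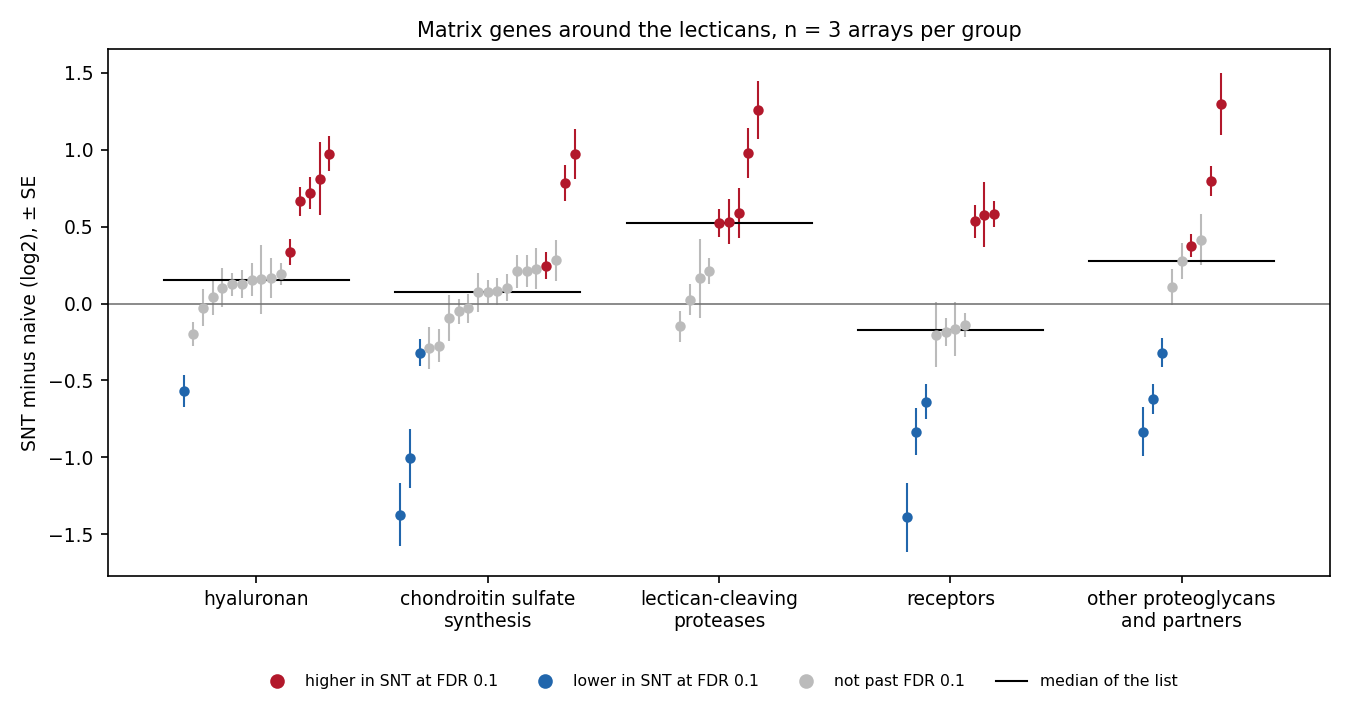
Log2 fold change SNT minus naive ± SE (vertical axis) of each measured gene in 5 lists of matrix genes, red where higher and blue where lower at FDR 0.1, grey where not called, with the median of each list as a black line (n = 3 arrays per group). The protease list has a median of 0.52 and no gene called lower, whereas enzymes of chondroitin sulfate synthesis are called in both directions.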

How the data were processed

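Gene expression was measured on Affymetrix Rat Exon 1.0 ST arrays in 3 SNT and 3 naive pools. The log2 values that the authors deposited, 1 per transcript cluster, came from the robust multi-array average (RMA) of the oligo package in R, that is background correction, quantile normalisation and median polish, which tends to compress large differences. The sources used here give no versions for these tools. No background level was set, since scanner files were not used. The number of arrays limits the precision.

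Groups and replicates came from the sample titles. Symbols came from the platform annotation. It gave 1 symbol to 13327 of 19418 clusters, several to 620 and none to 5471, and 13232 matched the RefSeq gene table for GRCr8, which altered 0 symbols. The cluster with the highest mean over 6 arrays stood for a gene (102 genes had more than 1). SNT was compared with naive in a two-sided limma test (version 3.58.1, R 4.3.3; functions lmFit and eBayes). P-values were adjusted by Benjamini and Hochberg's method across all 19418 clusters and read at an FDR of 0.1, since the study names limma and that FDR. No block was used in the fit, and the study's methods state none. Adjusted p-values in the text come from this fit, and intervals are its moderated 95% intervals (2.81 prior degrees of freedom). The procedure was tested on simulated data in which 200 of 19418 clusters changed. It recovered 46.3% of changes of 0.5 on the log2 scale, 74.6% of 1 and 93.9% of 2. Of the simulated calls 7.74% were false. The simulated noise was independent between clusters and had the same spread in both groups. In the real data far more clusters were called, SNT replicate 1 stood apart, and Hapln1 for example varied more among SNT arrays. Those settings were not simulated, so the simulated shares may not hold for the real data. Named genes were all set members, up to 4 called genes of smallest adjusted p from each list, up to 2 called genes opposed to the median of theirs, Atf3 and Sprr1a to check the labels, and the genes nearest to Hapln1 and to Hapln4, the tested member with the smallest adjusted p. Has2, Adamts5, Ptprs and the single marker genes were named after their values were seen. The members and lists were chosen with earlier results of these data known. Alternatives covered normalisation, a filter on dim clusters, the replicate number as a block, the variance model, the cluster per gene and each array left out. Of the promoter windows, 1 start per gene is shown.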

Additional observations from a re-analysis of the deposited data

How the results depend on the processing

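The counts of set genes called (1 higher and 3 lower) were the same under all 13 alternatives. For a gene with a single cluster, as every measured set gene was, the most variable cluster rule repeats the main fit. Alternatives were run for 31 single genes, namely the 8 set genes tested, the called genes named by the rule from the lists, Atf3 and Sprr1a, and none of those called reversed. The genes nearest to Hapln1 and Hapln4, other than Rtn4rl1, and those named after their values were seen were not rerun. Of 398 single-gene comparisons with an alternative, 394 kept their side of the threshold, and the 4 others were those of Hyal3 and Adamts9 given above. The difference of Hapln1 ranged over -3.80 to -2.67 when 1 array was left out and was -3.03 to -3.15 under the other normalisations. Over all clusters, 3367 rose and 2865 fell. With each array centred on its median, rises numbered 1869 and falls 3403, and with 1 array left out they ranged over 1643 to 3851 and falls over 1856 to 3226. Rises without naive replicate 1, 2 or 3 were 1643, 1855 and 2113, and falls without naive replicate 1 or 2 were 1856 and 1890. Median centring gave 3 proteases that rose, 5 receptors that fell and 2 hyaluronan genes that fell. Hyaluronan genes that fell also numbered 2 after repeated quantile normalisation, cyclic loess or the dim filter at 6, and 0 with the most variable cluster per gene. Under the dim filter the other proteoglycans and partners that rose numbered 5. With 1 array left out, hyaluronan genes that rose ranged over 3 to 6 (3 without naive replicate 3), proteases that rose over 3 to 5, proteases that fell over 0 to 1 (1 without SNT replicate 1) and receptors that fell over 3 to 5. The cause of these shifts was not tested. With the replicate number as a replicate block 4700 clusters were called, 2380 higher and 2320 lower, and the set genes called were again 1 higher and 3 lower. Deviations of same-numbered SNT and naive arrays correlated at -0.07, -0.15 and 0.05, and those of differently numbered arrays at -0.18 to 0.25. With so few arrays, these values cannot decide whether same-numbered samples share more than a number. Acan and Hapln3 on all arrays, and Hapln1 and Tnr on 2 SNT arrays, lay below 6, where nonspecific signal may be part of a value. A further fall may therefore be hard to measure, though no background level was set.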
